A study of Homo sapiens with 12 samples.

Results

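Small RNA was compared between CMm-EV, the extracellular vesicles (EV) released by cardiomyocytes at day 35 of differentiation, and CPC-EV, those released by cardiac progenitor cells at day 6. Both came from cells made from IMR90-4, an established line of human induced pluripotent stem cells (hiPSC), with no genetic change that separates the groups in the labels. The comparison took 3 CMm-EV and 3 CPC-EV libraries, 6 of the 12 of the series. They were chosen by their labelled stage and by no measured value. Within each group the libraries came from independent cultures and EV isolations. CPC-EV were collected from monolayers in differentiation medium conditioned for 72 h, and per the study's methods this medium held IWR-1, an inhibitor of Wnt signalling, from day 3 to day 6. CMm-EV were collected from aggregates in suspension, kept in maturation medium, in which galactose and fatty acids replace glucose and for which no IWR-1 is listed, that was conditioned for 48 h. Day, culture format, medium, inhibitor and conditioning time therefore changed together and cannot be told apart. Because all of these libraries came from 1 hiPSC line, the replicates measure the spread between cultures and not between donors.

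EV are membrane-bound particles that cells shed into their medium, and their RNA is mostly short. A miRNA is a short RNA cut from a hairpin precursor that guides the Argonaute protein to messenger RNA, and its seed, the stretch near its 5′ end, sets most of the pairing. Related miRNA that share a seed form a family, and many are transcribed together from 1 genomic cluster. Pluripotent cells are known for the miR-302/miR-367 and miR-371 to miR-373 clusters, several of whose members share a seed and favour cell division. The let-7 family accumulates as cells differentiate, since LIN28A blocks the processing of its precursors in stem cells. Myocytes are known for the myomiRs miR-1, miR-133, miR-208 and miR-499, of which miR-208a and miR-499a lie inside myosin heavy chain genes.

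The deposited values are expected counts per feature, from reads that the authors assigned to 5 RNA classes. Library totals ran from 3686897 to 7071055 reads in CPC-EV and from 1606949 to 7574162 in CMm-EV, and counts on miRNA from 1539043 to 3380608 and from 984865 to 6272455. Levels are given as CPM, the depth-normalized count within the class, scaled as said below. CMm-EV 1 had the fewest miRNA counts, and the absence of a miRNA there allows a level of 3 CPM (3 counts), while in CPC-EV 2 it allows 0.671 CPM. Such limits and all counting intervals below cover counting error only. Pairs of replicates gave a chi-square of 178 to 712 for each degree of freedom, far above what counting error alone would give. In bulk vesicle RNA, fewer vesicles from a cell type and less RNA per vesicle cannot be told apart.

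The cells behind the vesicles were checked by marker transcripts, summed over the fragments of each gene. These are raw counts, not scaled for depth. CPC-EV held 733045 to 1313888 gencode counts per library and CMm-EV 131183 to 322043. Fewer raw counts in CMm-EV, as for ACTC1 below, therefore need not mean a smaller share. LIN28A, a marker of stem cells, had 98 to 432 counts in CPC-EV and 0 in each CMm-EV library, while POU5F1 had 57, 1 and 0 counts in CPC-EV and 0 in CMm-EV. L1TD1, also of stem cells, had 0, 1 and 0 counts against 1, 0 and 0. Of the progenitor markers, GATA4 had 25 to 83 counts in CPC-EV and 0 to 9 in CMm-EV, and HAND1 had 61, 168 and 0 in CPC-EV and 0 in CMm-EV. TBX5 had 53, 0 and 0 counts in CPC-EV and 0 in CMm-EV. TTN, the giant spring protein of the sarcomere, had 964 to 1219 counts in CPC-EV and 1603 to 3465 in CMm-EV, from far fewer gencode counts in all. TNNT2, cardiac troponin T, was uneven, with 50, 1 and 7 counts in CPC-EV and 0, 216 and 38 in CMm-EV. ACTC1, cardiac actin, had 161, 490 and 178 counts in CPC-EV and 135, 177 and 54 in CMm-EV, and MYH7, the beta heavy chain of myosin, had 9, 11 and 1 against 33, 329 and 13. AFP, a liver marker, had 9 counts in CMm-EV 2 and 0 in the other libraries, APOB had 0, 60 and 111 counts in CPC-EV and 0 in CMm-EV, and CDH5 of endothelium was at 0 throughout. Reads on DCN of stroma reached at most 2 counts in any library. ISL1 of progenitors, ALB, APOA1 and TTR of liver and PECAM1 of endothelium had no entry.

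The miRNA that carried the comparison fall into a few seeds. Their mature sequences are given 5′ to 3′ from RefSeq, with the seed (bases 2 to 8) in capitals. Of the 292 tested miRNA, 263 matched an entry, and they hold 214 seeds. The first set was lower in CMm-EV, in part down to traces, and holds miR-302a-5p, which had the highest mean in CPC-EV, as well as the scarcer miR-372-3p.
miR-302a-5p: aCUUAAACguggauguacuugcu
miR-302b-3p: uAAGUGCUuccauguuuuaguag
miR-302d-3p: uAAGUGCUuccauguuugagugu
miR-372-3p: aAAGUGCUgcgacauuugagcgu
miR-92a-3p: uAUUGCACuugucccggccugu
miR-363-3p: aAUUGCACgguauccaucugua
miR-182-5p: uUUGGCAAugguagaacucacacu
miR-200b-3p: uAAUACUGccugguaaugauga

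The miR-302/miR-367 cluster lies on chromosome 4 of GRCh38, the minus strand, with miR-302a-5p at chr4:112648224-112648246 and miR-302b-3p at chr4:112648489-112648511. These positions are in an exon of the long noncoding RNA MIR302CHG and, on the other strand, in an intron of LARP7. miR-372-3p lies at chr19:53787931-53787953 on the plus strand, in an intron of a long noncoding RNA. miR-92a-3p has 2 loci, 1 in an exon of MIR17HG at chr13:91351361-91351382 on the plus strand and 1 at chrX:134169544-134169565 on the minus strand, next to miR-363-3p at chrX:134169382-134169403. Reads of miR-92a-3p cannot be divided between its 2 loci. miR-182-5p lies at chr7:129770447-129770470 on the minus strand, in an intron of a long noncoding RNA.

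A second set was higher in CMm-EV, where it made up most of the miRNA counts, and holds miRNA that were scarce in CPC-EV as well as miR-99b-5p and miR-125a-5p, which were already abundant there.
miR-100-5p: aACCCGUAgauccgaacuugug
miR-99a-5p: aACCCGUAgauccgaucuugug
miR-99b-5p: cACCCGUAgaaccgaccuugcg
miR-125a-5p: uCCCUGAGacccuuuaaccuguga
miR-125b-5p: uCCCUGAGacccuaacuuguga
let-7a-5p: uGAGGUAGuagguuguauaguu
let-7c-5p: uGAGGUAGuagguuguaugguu
let-7e-5p: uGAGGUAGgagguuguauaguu
miR-143-3p: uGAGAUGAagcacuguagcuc
miR-1-3p: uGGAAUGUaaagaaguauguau
miR-133a-3p: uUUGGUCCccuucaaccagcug
miR-499a-5p: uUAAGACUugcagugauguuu
miR-208a-3p: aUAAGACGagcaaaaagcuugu

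The first 8 of these come from 3 paralogous clusters, each with 1 member of the miR-99/miR-100, let-7 and miR-125 families. On chromosome 19, plus strand, miR-99b-5p (chr19:51692618-51692639), let-7e-5p (chr19:51692793-51692814) and miR-125a-5p (chr19:51693268-51693291) lie in an intron of SPACA6. On chromosome 11, minus strand, miR-100-5p (chr11:122152275-122152296), let-7a-5p (chr11:122146568-122146589) and miR-125b-5p (chr11:122099809-122099830) lie in introns of the long noncoding RNA MIR100HG. On chromosome 21, plus strand, miR-99a-5p (chr21:16539101-16539122), let-7c-5p (chr21:16539838-16539859) and the second copy of miR-125b-5p (chr21:16590253-16590274) lie in MIR99AHG. let-7a-5p has further copies on chromosomes 9 and 22, and reads cannot be divided between copies. miR-143-3p lies in an exon of the long noncoding RNA CARMN at chr5:149428978-149428998. miR-499a-5p lies in an intron of MYH7B at chr20:34990408-34990428, and miR-208a-3p in an intron of MYH6 at chr14:23388602-23388623 on the minus strand.

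The question asked first was how the RNA of the vesicles divides between classes. miRNA made up a larger part of the counts in CMm-EV, and piRNA and gencode fragments a smaller part. The miRNA share was 51.8%, 58.1% and 50.1% of the counts on the 5 classes in CPC-EV and 76.9%, 89.0% and 89.3% in CMm-EV. The groups did not overlap, with means of 53.3% ± 4.18 (SD, n = 3) and 85.1% ± 7.04 and a difference of 31.7 percentage points (two-sided exact permutation test, p = 0.1, the smallest that 3 against 3 libraries can give). Gencode fragments took 22.6% to 24.7% of the counts in CPC-EV and 4.57% to 10.2% in CMm-EV, and piRNA 11.9% to 16.2% and 2.03% to 3.01%, again without overlap (exact permutation test, p = 0.1 for each). The tRNA share was 7.95% ± 1.12 and 5.12% ± 2.67 with overlapping libraries (exact permutation test, p = 0.3). Circular RNA took 0.655% to 0.730% in CPC-EV and 1.66%, 0.446% and 0.262% in CMm-EV (exact permutation test, p = 1.0). These are shares of a whole, so that a larger share of 1 class lowers the others.

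**Figure D1:**
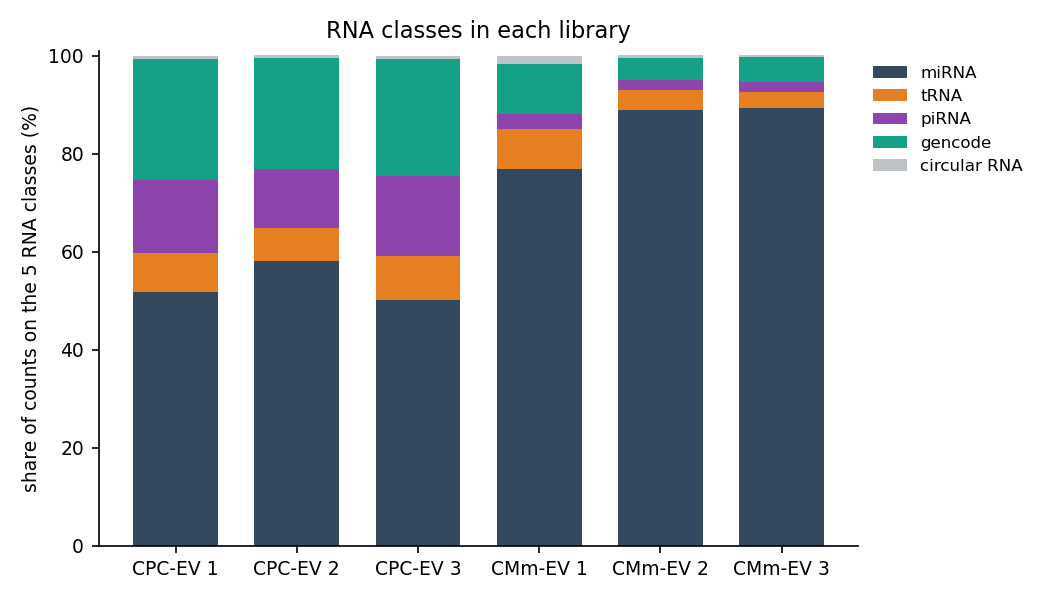
Share of the counts on the 5 RNA classes (percent, vertical axis) in each of the 3 CPC-EV and 3 CMm-EV libraries, as stacked bars. miRNA fills 50.1% to 58.1% of the CPC-EV bars and 76.9% to 89.3% of the CMm-EV bars.

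The second question was which miRNA differ. miRNA of stem cells and of epithelia were among those that fell, and those of myocytes, of the miR-99/miR-100, let-7 and miR-125 families and of the miR-143/miR-145 cluster were among those that rose. Of 292 miRNA with at least 5 CPM in all libraries of a group, 62 were higher in CMm-EV (21.2%) and 69 were lower (23.6%) by the quasi-likelihood test of edgeR, with a false discovery rate (FDR) under 0.05 and an absolute log2 fold change from 1 upward. The 3 libraries of a group lay apart from those of the other in 201 of the 292 (68.8%), and in all 131 of the miRNA called. In CMm-EV, 26 of the miRNA called had no count in any library, and in CPC-EV 7 had none. The filter was passed in both groups by 151 miRNA, of which 44 were called higher and 26 lower. A further 105 passed through CPC-EV alone, with 43 of the lower calls, and 36 through CMm-EV alone, with 18 of the higher calls. A feature that passed through 1 group alone was chosen by its high level there, so its direction follows in part from the filter, and counts of such members are given below as a description only. Shares of families are sums over all listed members, tested or not. The median log2 fold change over all tested miRNA was -0.44. The scaling factors of edgeR (TMM, a trimmed mean of log ratios) ran from 1.32 to 1.80 in CPC-EV and from 0.480 to 1.01 in CMm-EV. Scaling by miRNA totals alone moved the median to -1.70 and the split to 34 higher and 112 lower. Without CPC-EV 3 the count of lower miRNA was 106.

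**Figure D2:**
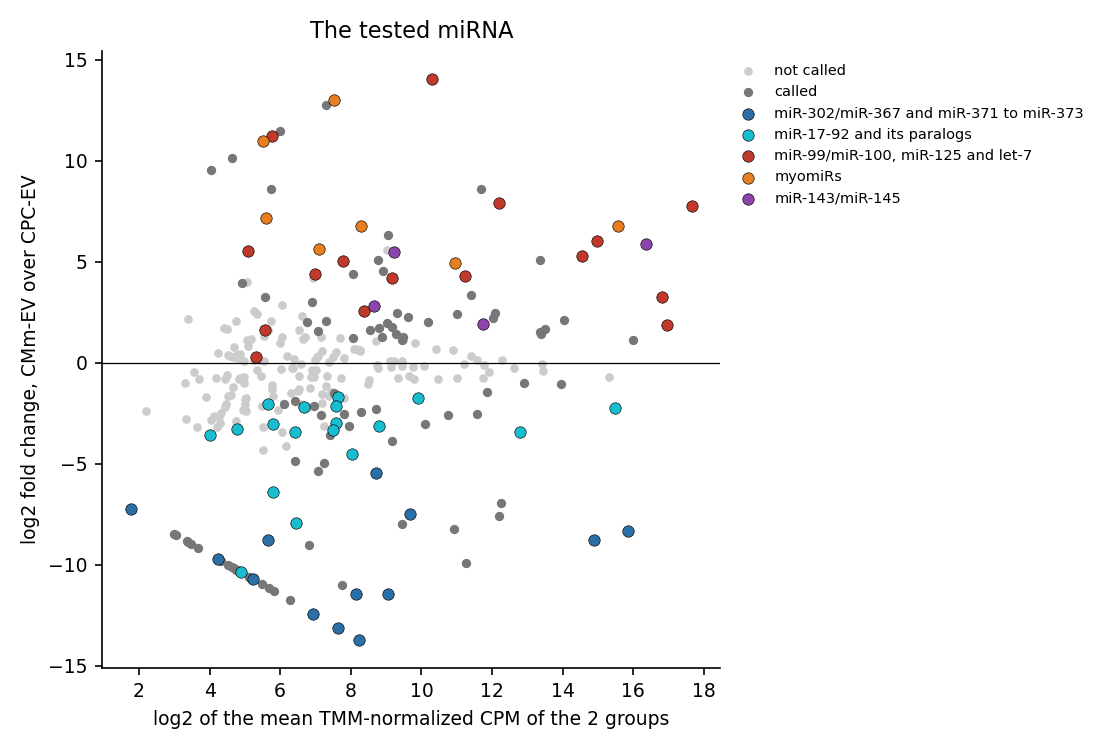
Log2 fold change of CMm-EV over CPC-EV (vertical axis) against the log2 of the mean TMM-normalized CPM of the 2 groups (horizontal axis), 1 point per tested miRNA, with colours for the call and for the families named in the key. Of 292 points, 62 are called higher and 69 lower.

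The miR-302/miR-367 cluster, the most abundant miRNA cluster of stem cells, had the largest share in CPC-EV of the families listed here and was nearly lost in CMm-EV. It made up 26.6%, 35.9% and 18.5% of the miRNA counts of CPC-EV and 0.0609%, 0.0288% and 0.0237% of those of CMm-EV. Of its 10 listed members 9 were tested and called lower, 7 of them after passing the filter through CPC-EV alone. miR-302a-5p stood at 103000, 200000 and 54700 CPM in CPC-EV and at 350, 363 and 379 CPM in CMm-EV (log2 fold change -8.35 ± 0.47 (SE), FDR 0.000231). The groups lay far apart, although CPC-EV 2 held several times the level of CPC-EV 3. miR-302b-3p, the most abundant carrier of the aagugcu seed, stood at 69400, 66500 and 45000 CPM in CPC-EV and at 243, 102 and 76.8 CPM in CMm-EV (log2 fold change -8.75 ± 0.47, FDR 0.000231). miR-302c-3p fell from a mean of 1620 ± 368 CPM (SD, n = 3) to 8.78 ± 11.2 CPM and miR-302a-3p from 819 ± 353 CPM to 18.1 ± 19 CPM. miR-302d-3p had 6084 counts over CPC-EV and 1 over CMm-EV, a ratio of 4380 with a 95% exact counting interval of 785 to 173000. For miR-302b-5p, with 908 counts against 1, the ratio was 653 (117 to 25800).

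The miR-371 to miR-373 cluster, which shares the stem cell seed in part, was smaller but as nearly lost. The share of its 7 listed members went from 0.209% ± 0.0059 to 0.000102% ± 0.000176 (SD, n = 3). The 3 members tested, all called lower, had passed the filter through CPC-EV alone. miR-371a-5p stood at 1080, 1130 and 998 CPM in CPC-EV and at 2, 0 and 0 CPM in CMm-EV, which is 10536 counts against 2 and a ratio of 3790 (95% exact counting interval 1050 to 31300). The CPC-EV libraries were close to each other, and CMm-EV 1 alone held the 2 counts. miR-372-3p had 2672 counts in CPC-EV and none in CMm-EV, at least 145-fold lower against 3 counts per library, and miR-373-3p was at least 22.2-fold lower. The 48 listed members of the primate-specific C19MC cluster on chromosome 19 took 0.0439% to 0.0583% of the miRNA counts in CPC-EV and at most 0.000203% in CMm-EV. Its 2 tested members passed the filter through CPC-EV alone. These were miR-1323, with 2286 counts against 2 (ratio 822, interval 227 to 6790), and miR-516a-5p, at least 41.1-fold lower.

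The imprinted DLK1-DIO3 cluster on chromosome 14 was low in CPC-EV and close to absent in CMm-EV. The share of its 29 listed members was 0.0848%, 0.113% and 0.0479% in CPC-EV and at most 0.00122% in CMm-EV, and its 3 tested members, all called lower, had passed the filter through CPC-EV alone. miR-654-3p was at 122, 231 and 113 CPM in CPC-EV and without a count in CMm-EV, at least 91.8-fold lower, and miR-370-3p was at least 32-fold lower. miR-127-3p was at 180, 249 and 66.5 CPM in CPC-EV and at 11.0, 0 and 6.57 CPM in CMm-EV (log2 fold change -4.88 ± 1.33, FDR 0.0397). The groups did not overlap, but its FDR rose above 0.05 without CMm-EV 1 (0.0585), CMm-EV 3 (0.0896) or any CPC-EV library (0.0992, 0.115 and 0.0527).

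The miR-17-92 cluster and its 2 paralogs, known for driving proliferation and for growth of the early heart, were lower in CMm-EV, by less than the stem cell clusters. miR-17-92 went from 12.9%, 10.4% and 12.3% of the miRNA counts to 1.39%, 1.04% and 0.776%, and 4 of 9 tested members were called lower, 2 of which had passed the filter in both groups. Of the miR-106a-363 and miR-106b-25 clusters, 6 of 9 were lower, 4 of them with values past the filter in both groups, with a share that went from 2.50% ± 0.293 to 0.121% ± 0.0146. No member of either group was called higher. miR-92a-3p, the leading member, stood at 83400, 77200 and 66900 CPM in CPC-EV and at 13500, 17900 and 16000 CPM in CMm-EV (log2 fold change -2.26 ± 0.23, FDR 0.000604). Its libraries were tight within both groups and far apart between them. miR-363-3p, its neighbour on the X chromosome and of the same seed, fell from 12900 ± 1950 to 1180 ± 164 CPM (-3.45 ± 0.21, FDR 0.000231). miR-25-3p, also of that seed, fell from 1480 ± 276 to 440 ± 213 CPM (-1.75 ± 0.43, FDR 0.0168), and miR-20a-5p from 798 ± 188 to 92.2 ± 8.94 CPM (-3.11 ± 0.30, FDR 0.000604).

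The smallest change of the miR-92 seed was that of miR-92b-3p, which is encoded apart from these clusters. It stood at 24900, 22100 and 17900 CPM in CPC-EV and at 6890, 11500 and 12600 CPM in CMm-EV (log2 fold change -1.07 ± 0.29, FDR 0.0232). The groups did not overlap, yet the call was lost without CMm-EV 1 (-0.89, FDR 0.0194) or CMm-EV 2 (-1.14, FDR 0.0573). miR-17-5p was at 333, 354 and 328 CPM in CPC-EV and at 94.1, 34.8 and 0.41 CPM in CMm-EV, and with this spread it missed the threshold (-2.99 ± 1.27, FDR 0.127), which it passed without CMm-EV 3 (-2.40, FDR 0.0205), by DESeq2 (-3.11, FDR 0.0332) and without a filter (-3.12, FDR 0.00757).

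The miR-200 family and the miR-183/miR-96/miR-182 cluster, which epithelial cells and stem cells express, fell to traces. The miR-183/miR-96/miR-182 cluster went from 3.04%, 3.00% and 2.87% of the miRNA counts to 0.00660%, 0.00713% and 0.0105%, with 4 of 4 tested members called lower, 2 of which had passed the filter in both groups. miR-183-5p stood at 10500, 10800 and 7940 CPM in CPC-EV and at 40.0, 54.3 and 144 CPM in CMm-EV (log2 fold change -6.93 ± 0.48, FDR 0.000328). miR-182-5p fell alongside from 9440 ± 1830 to 48.1 ± 21 CPM (-7.60 ± 0.37, FDR 0.000231), and miR-96-5p from 292 ± 56.3 to 8.81 ± 8.51 CPM (-4.99 ± 1.04, FDR 0.0142). Of the 8 listed members of the miR-200 family 4 were tested, all through CPC-EV alone, and 3 were called lower. The share of the family was 0.970%, 0.939% and 0.640% in CPC-EV and at most 0.00110% in CMm-EV. miR-200b-3p, which holds the E-cadherin repressors ZEB1 and ZEB2 in check, stood at 5410, 6050 and 3270 CPM in CPC-EV and at 5.01, 0 and 10.7 CPM in CMm-EV (-9.91 ± 1.03, FDR 0.0017). For miR-200c-3p the counts were 4357 against 1 (ratio 3130, 95% exact counting interval 562 to 124000), and miR-200a-3p was at least 52.9-fold lower. miR-141-3p, at 99, 88.6 and 73.0 CPM against 0, 0 and 12.3 CPM, was not called (-4.35 ± 1.64, FDR 0.104), and was called without CMm-EV 3 (-10.96, FDR 0.00462), by DESeq2 (-4.74, FDR 0.0163), by miRNA totals alone (-5.91, FDR 0.0269) and without a filter (-4.46, FDR 0.0249).

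Other miRNA of CPC-EV were lower by smaller factors. Of the miR-221/miR-222 cluster, which targets cell cycle inhibitors, 2 of 4 tested members were called lower, namely miR-222-3p (2980 ± 561 to 497 ± 266 CPM, log2 fold change -2.58 ± 0.45, FDR 0.00487) and miR-221-5p (531 ± 72.8 to 98.2 ± 73.8 CPM, -2.43 ± 0.55, FDR 0.0142). miR-221-3p was at 321, 338 and 158 CPM in CPC-EV and at 0, 33.7 and 57.5 CPM in CMm-EV, and was not called (FDR 0.108). It was called without CMm-EV 1 (-2.62, FDR 0.0149), by DESeq2 (-3.48, FDR 0.012) and with dispersions from all 12 libraries (-3.26, FDR 0.0113). The miR-130/miR-301 and miR-148/miR-152 families were mixed, with 3 of 7 lower and 1 higher. miR-130b-5p fell from 5150 ± 236 to 895 ± 268 CPM (-2.52 ± 0.27, FDR 0.000704) and miR-148a-3p from 10300 ± 926 to 5090 ± 1010 CPM (-1.02 ± 0.22, FDR 0.00931). Without CMm-EV 1, miR-148a-3p was at -0.92 and outside the call. miR-152-3p, of the same seed as miR-148a-3p, was higher, at 0.395, 26.2 and 45.9 CPM in CPC-EV and at 525, 409 and 587 CPM in CMm-EV (4.39 ± 1.13, FDR 0.0312). Its FDR passed 0.05 without CPC-EV 2 (0.0881), CMm-EV 1 (0.0651), CMm-EV 2 (0.0531) or CMm-EV 3 (0.0620). miR-152-3p had passed the filter through CMm-EV alone, and by miRNA totals alone it was outside the call (3.15, FDR 0.0732).

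On the other side, the 3 clusters that join the miR-99/miR-100, let-7 and miR-125 families supplied most of the miRNA counts of CMm-EV. The miR-99/miR-100 family, known for repressing MTOR, took 8.21%, 7.26% and 11.9% of the counts in CPC-EV and 35.7%, 44.8% and 41.0% in CMm-EV, with 3 of 4 tested members called higher (median log2 fold change 3.56). The miR-125 family went from 3.65% ± 1.4 to 17.4% ± 1.12 with 4 of 5 higher (median 3.25). Neither family had a member called lower. miR-100-5p, at 1660, 1440 and 2660 CPM in CPC-EV and at 231000, 496000 and 523000 CPM in CMm-EV, was the most abundant miRNA of all 3 CMm-EV libraries, with 23.4% to 28.4% of the counts (log2 fold change 7.76 ± 0.44, FDR 0.000231). Its chromosome 21 relative miR-99a-5p stood at 921, 551 and 2180 CPM in CPC-EV and at 32600, 52800 and 56300 CPM in CMm-EV (5.28 ± 0.53, FDR 0.000894).

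The chromosome 19 member of that family started from a higher level. miR-99b-5p stood at 51800, 52900 and 61500 CPM in CPC-EV and at 89100, 234000 and 274000 CPM in CMm-EV (log2 fold change 1.84 ± 0.44, FDR 0.0152). The groups did not overlap, but CMm-EV 1 held less than the other CMm-EV libraries, and without CMm-EV 2 the FDR was 0.0537. By miRNA totals alone its log2 fold change was 0.46, outside the call. miR-125a-5p, its cluster neighbour, stood at 20200, 18500 and 27400 CPM in CPC-EV and at 134000, 228000 and 268000 CPM in CMm-EV (3.25 ± 0.35, FDR 0.000845). miR-125b-5p, from the clusters on chromosomes 11 and 21, rose from 968 ± 505 to 63800 ± 13300 CPM (6.04 ± 0.40, FDR 0.000255). Both passenger strands of miR-125b were called higher. miR-125b-2-3p of chromosome 21 rose from 95.8 ± 32.9 to 574 ± 60.5 CPM (2.58 ± 0.35, FDR 0.00203, but 1.4 and FDR 0.0697 by miRNA totals alone). miR-125b-1-3p of chromosome 11 rose from 0, 10.3 and 28.9 CPM to 336, 412 and 527 CPM (5.02 ± 1.25, FDR 0.0297), and its FDR passed 0.05 without CPC-EV 2 (0.0934), CMm-EV 1 (0.0530), CMm-EV 2 (0.0561) or CMm-EV 3 (0.0610).

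The let-7 family was higher in CMm-EV in 6 of 7 tested members and lower in none, and 3 of the 6 had passed the filter in both groups. The share of its 15 listed members went from 0.0530%, 0.0449% and 0.0676% to 1.38%, 0.948% and 1.15%. let-7e-5p, from the chromosome 19 cluster, stood at 26.4, 23.9 and 68.3 CPM in CPC-EV and at 7690, 9360 and 11200 CPM in CMm-EV (7.89 ± 0.44, FDR 0.000231). let-7c-5p, from chromosome 21, had 1 count over CPC-EV and 18367 over CMm-EV, a ratio of 25500 (95% exact counting interval 4580 to 1010000). let-7a-5p was present in both groups, at 234, 243 and 231 CPM in CPC-EV, and reached 3130, 3830 and 6680 CPM in CMm-EV (4.27 ± 0.31, FDR 0.000255). let-7f-5p rose from 60.6 ± 12.6 to 1100 ± 208 CPM (4.17 ± 0.29, FDR 0.000243). All 8 mature miRNA of the 3 clusters listed with their sequences were called higher. let-7 members differ by few bases, and how the counting divided reads between them was not tested. LIN28A fragments, as given above, were present in the 3 CPC-EV libraries and at 0 in the 3 CMm-EV libraries, and their part in the let-7 levels was not tested.

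The 7 tested myomiRs of 10 listed were called higher, 5 of them after passing the filter through CMm-EV alone, and the share of all listed went from 0.119%, 0.104% and 0.268% to 3.18%, 3.11% and 10.4%. miR-1-3p, which carries most of that share, stood at 670, 697 and 1280 CPM in CPC-EV and at 26100, 49400 and 212000 CPM in CMm-EV (6.76 ± 0.77, FDR 0.0021). The groups lay apart, but CMm-EV 3 held several times the level of the other CMm-EV libraries, and the log2 fold change ranged from 5.42 to 7.18 as each library was left out. miR-133a-3p, from the same 2 transcripts on chromosomes 18 and 20 as miR-1-3p, stood at 90.4, 76.5 and 200 CPM in CPC-EV and at 4330, 3180 and 3900 CPM in CMm-EV (4.96 ± 0.40, FDR 0.000373). It did not share the high value of CMm-EV 3. miR-499a-5p, of the slow myosin gene MYH7B, had no count in CPC-EV and stood at 198, 447 and 454 CPM in CMm-EV, at least 374-fold higher. miR-208a-3p, of the alpha myosin heavy chain gene MYH6, which in humans marks the atria, stood at 17.4, 0 and 0 CPM in CPC-EV and at 418, 767 and 663 CPM in CMm-EV (6.76 ± 1.60, FDR 0.0315). Without CPC-EV 1, the only library of that group with counts, its log2 fold change was 13.74. Its FDR passed 0.05 without any CMm-EV library (0.0531, 0.0626 and 0.0602) or without CPC-EV 2 (0.0596) or CPC-EV 3 (0.0604).

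**Figure D3:**
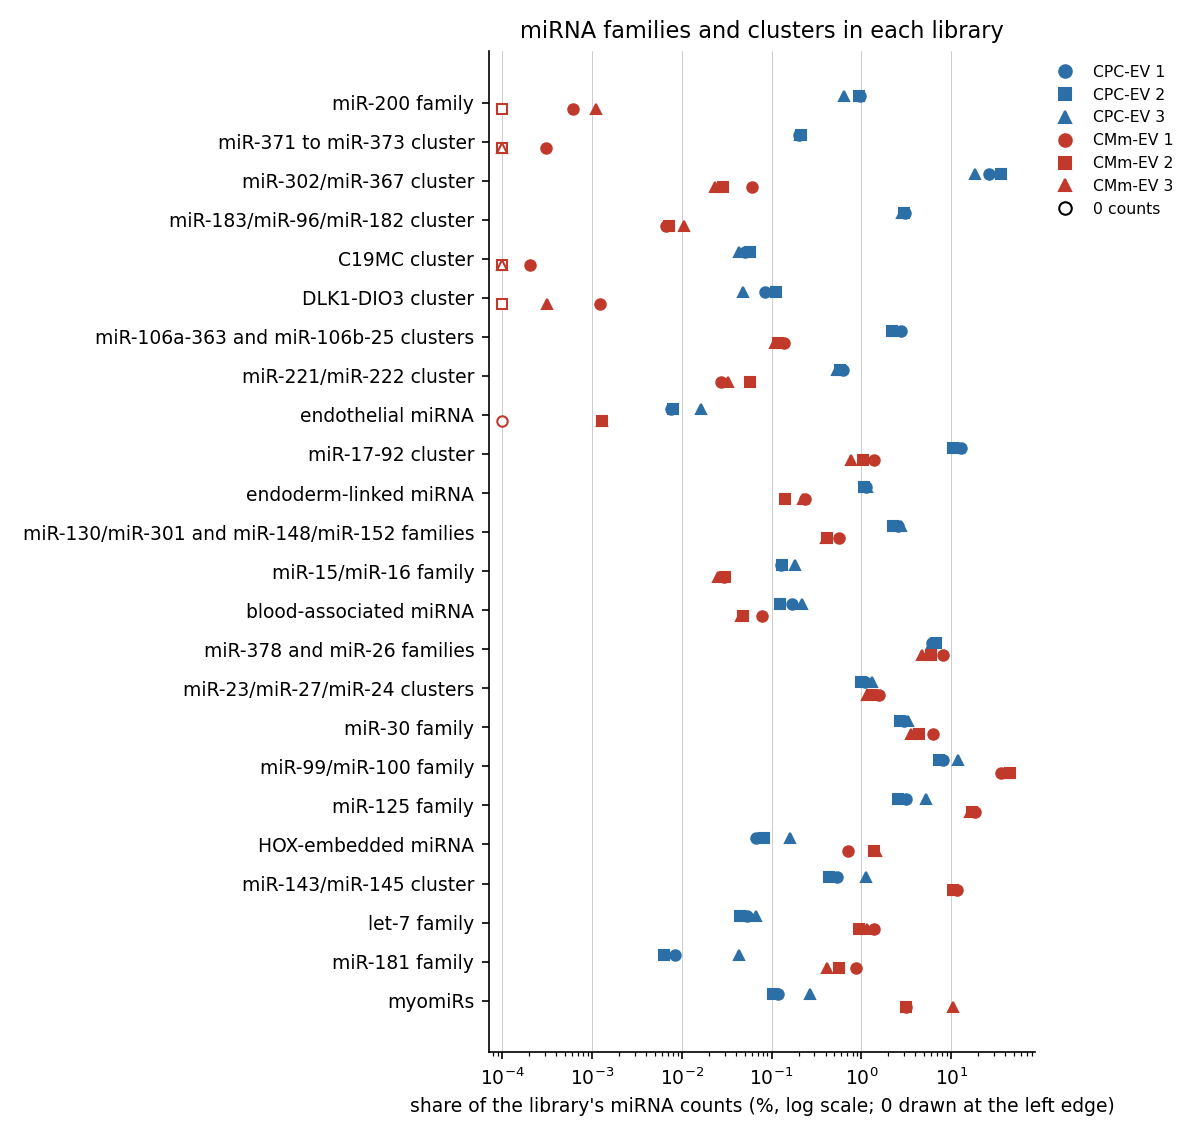
Share of the miRNA counts (percent, horizontal log axis, 0 at the left edge) of each miRNA family or cluster (rows) in the 3 CPC-EV and 3 CMm-EV libraries, 1 point per library. The miR-302/miR-367 cluster sits at 18.5% to 35.9% in CPC-EV and at 0.0237% to 0.0609% in CMm-EV, and the miR-99/miR-100 family at 7.26% to 11.9% and 35.7% to 44.8%.

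The miR-143/miR-145 cluster, abundant in smooth muscle and stromal cells, was higher in 4 of 4 members, and its share of 0.537%, 0.431% and 1.13% in CPC-EV compared with 11.5%, 10.4% and 10.7% in CMm-EV. miR-143-3p stood at 2110, 2030 and 4240 CPM in CPC-EV and at 109000, 173000 and 213000 CPM in CMm-EV (log2 fold change 5.88 ± 0.41, FDR 0.00029). Its partner strand miR-143-5p rose from 26.7 ± 12.5 to 1170 ± 143 CPM (5.46 ± 0.43, FDR 0.000373). From the neighbouring hairpin, miR-145-5p rose from 100 ± 37.2 to 705 ± 176 CPM (2.82 ± 0.39, FDR 0.0021) and miR-145-3p from 1440 ± 420 to 5420 ± 2120 CPM (1.91 ± 0.37, FDR 0.00703). By miRNA totals alone miR-145-3p was at 0.54 (FDR 0.202) and with dispersions from all 12 libraries at 1.84 (FDR 0.0865), both outside the call. The part of fibroblast and stromal transcripts in this result was not tested. Of 31 listed entries 7 were tested, all after passing the filter through CPC-EV alone. The quasi-likelihood test of edgeR called none of the 7, while DESeq2 called FN1 (-4.35, FDR 0.00383) and VIM (-3.07, FDR 0.0225) lower. FN1 was also called lower by edgeR without a filter (-4.21, FDR 0.0345) and with the sum of the 5 classes as library size (-5.96, FDR 0.0199). The summed share of the list was 0.140% to 0.166% of the gencode counts in CPC-EV and 0.0174% to 0.0717% in CMm-EV. In raw counts, not scaled for depth, COL1A1 had 29, 84 and 130 in CPC-EV and 23, 30 and 0 in CMm-EV. COL3A1 had 0, 0 and 53 against 0, 45 and 7, and DCN had 0 in each CPC-EV library against 0, 2 and 1. Scaled within the class, the protein-coding entry of COL1A1 was at 38.7, 64.9 and 139 CPM against 110, 42.3 and 0 CPM.

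Several families that are widespread in differentiated tissue were also higher. The miR-30 family was higher in 7 of 7 tested members (median log2 fold change 2.05). miR-30d-5p rose from 6440, 6620 and 6060 CPM to 24700, 28100 and 29700 CPM (2.11 ± 0.18, FDR 0.000328), miR-30a-5p from 1330 ± 72.2 to 7410 ± 899 CPM (2.48 ± 0.18, FDR 0.000231) and miR-30c-5p from 5460 ± 428 to 17600 ± 2700 CPM (1.69 ± 0.20, FDR 0.00102). miR-30e-5p rose from 5790 ± 310 to 15400 ± 1780 CPM (1.41 ± 0.18, FDR 0.00141). Under scaling by miRNA totals alone, miR-30c-5p, miR-30d-5p and miR-30e-5p kept their direction, at 0.48, 0.92 and 0.21, and missed the threshold. The share of the family was 3.02% ± 0.320 in CPC-EV and 4.71% ± 1.37 in CMm-EV.

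The miR-181 family was nearly absent from CPC-EV. It was higher in 3 of 5 tested members, 1 of which had passed the filter in both groups, with a share of 0.00833%, 0.00627% and 0.0433% in CPC-EV and 0.873%, 0.559% and 0.410% in CMm-EV. miR-181a-5p stood at 0, 24.2 and 26.4 CPM in CPC-EV and at 6560, 7090 and 6120 CPM in CMm-EV (8.59 ± 1.04, FDR 0.00327). miR-181a-3p, its partner strand, had no count in CPC-EV and 2035 in CMm-EV, at least 319-fold higher, and miR-181a-2-3p rose from 39.7 ± 19.2 to 923 ± 399 CPM (4.54 ± 0.50, FDR 0.00115). miR-181b-5p, at 0, 0 and 64.0 CPM against 1110, 924 and 1020 CPM, was not called (5.58 ± 1.81, FDR 0.0821), and was called without CPC-EV 3 (14.44, FDR 0.000656). With all libraries kept it was called by DESeq2 (5.34, FDR 0.0181), with dispersions from 12 libraries (5.56, FDR 0.0218) and without a filter (5.46, FDR 0.000186).

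miR-10a-5p, which lies in the HOXB gene cluster, stood at 374, 579 and 879 CPM in CPC-EV and at 6900, 24200 and 30200 CPM in CMm-EV (log2 fold change 5.06 ± 0.57, FDR 0.00145). miR-10b-5p of the HOXD cluster rose less, from 66.3, 42.9 and 20.3 CPM to 90.1, 183 and 248 CPM (2.01 ± 0.65, FDR 0.0483). Its call was lost without CMm-EV 2 (FDR 0.102), CMm-EV 3 (0.125) or any CPC-EV library (0.0600, 0.181 and 0.128). With all libraries kept, its call was lost by miRNA totals alone (0.71, FDR 0.371) and by median-of-ratios scaling (1.74, FDR 0.0611). The same held without a filter (1.89, FDR 0.115) and with dispersions from all 12 libraries (1.96, FDR 0.0662). miR-378a-3p, which is encoded in the metabolic coactivator gene PPARGC1B, rose from 451, 546 and 481 CPM to 4380, 4720 and 5710 CPM (3.33 ± 0.20, FDR 0.000231), and miR-378i from 8.98 ± 1.63 to 85.1 ± 13.2 CPM (3.24 ± 0.59, FDR 0.00653, but 2.02 and FDR 0.0614 by miRNA totals alone). Of the miR-23/miR-27/miR-24 clusters 5 of 7 tested members were higher (median 1.5), with miR-27b-3p at 5510 ± 267 and 15600 ± 3480 CPM (1.5 ± 0.23, FDR 0.00234) and miR-24-3p at 463 ± 32.5 and 1870 ± 424 CPM (2.02 ± 0.24, FDR 0.00111). Scaling by miRNA totals alone left these at 0.26 and 0.77, outside the call. miR-584-5p had 2 counts against 644 (ratio 448, 95% exact counting interval 123 to 3710).

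**Figure D4:**
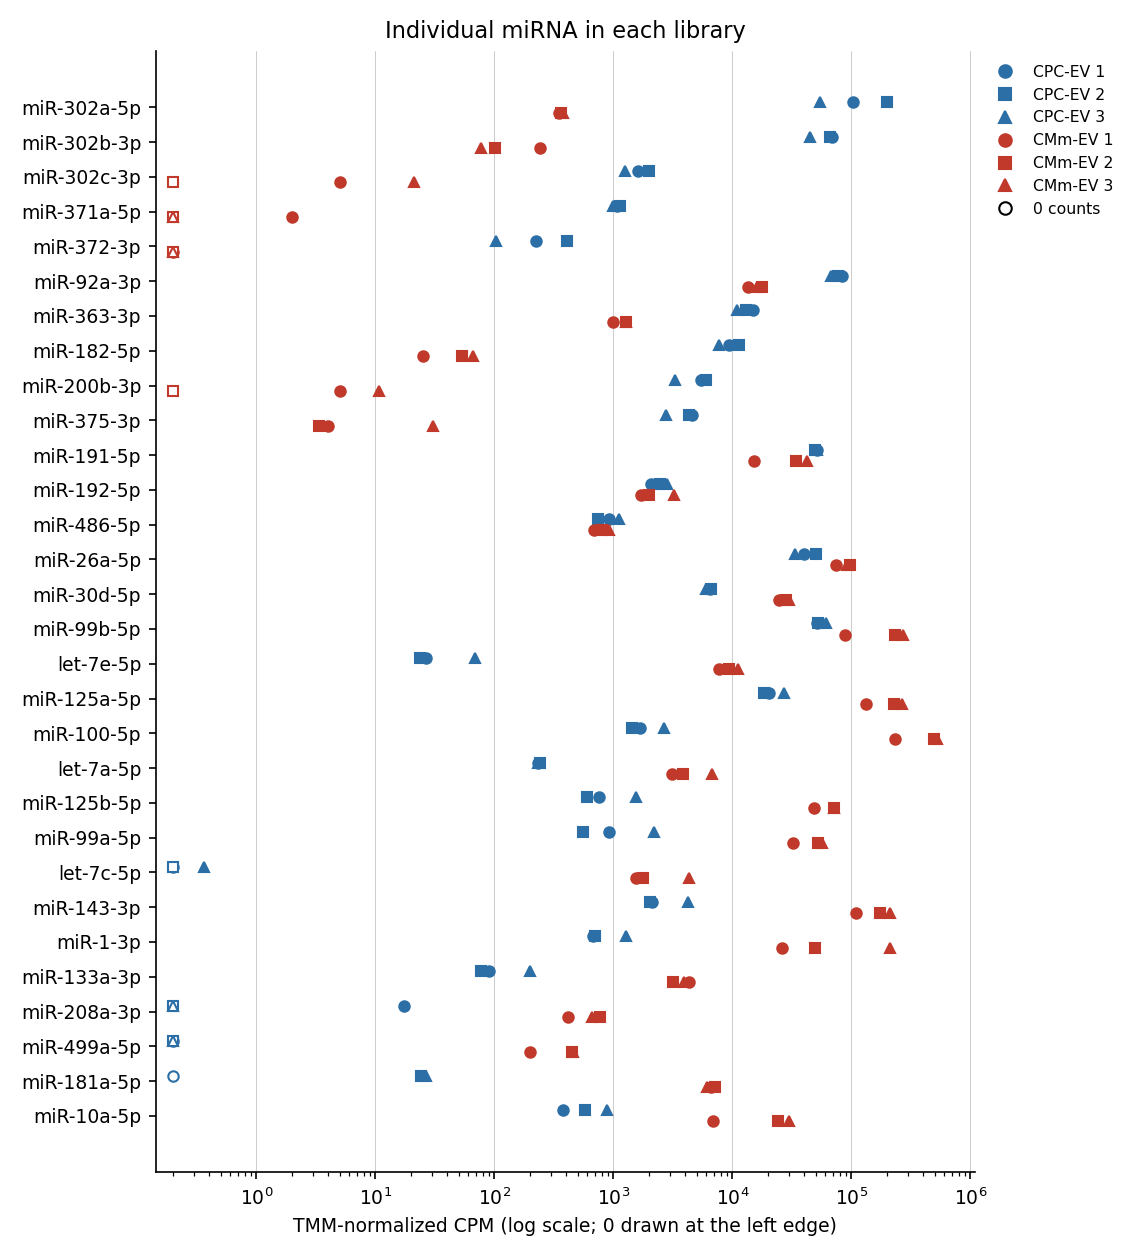
TMM-normalized CPM (horizontal log axis, 0 at the left edge) of single miRNA (rows) in the 3 CPC-EV and 3 CMm-EV libraries, 1 point per library. miR-302a-5p sits at 54700 to 200000 CPM in CPC-EV and at 350 to 379 CPM in CMm-EV, while miR-100-5p sits at 1440 to 2660 and 231000 to 523000 CPM.

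Some abundant miRNA missed the threshold or passed it only under some settings. miR-191-5p stood at 51300, 49000 and 51100 CPM in CPC-EV and at 15300, 34500 and 42600 CPM in CMm-EV, and was not called (log2 fold change -0.71 ± 0.39, FDR 0.191). miR-423-5p was at 12800 ± 846 and 9510 ± 1420 CPM (-0.43 ± 0.20, FDR 0.132). By miRNA totals alone both were called lower (-2.07 and -1.58). miR-26a-5p, at 40000, 50200 and 33400 CPM in CPC-EV and 74600, 98000 and 92500 CPM in CMm-EV, was called higher (1.10 ± 0.26, FDR 0.0142), but its share of the counts was close to the same, so that scaling by totals alone gave -0.08. The call was also lost without CPC-EV 1 (0.97, FDR 0.0670), CPC-EV 3 (0.74, FDR 0.0218) or CMm-EV 2 (1.02, FDR 0.0644). With all libraries kept, miR-26a-5p was outside the call by DESeq2 (0.85), by median-of-ratios scaling (0.85) and without a filter (0.98). The summed share of miR-26 and miR-378 was 6.34% ± 0.370 in CPC-EV and 6.25% ± 1.67 in CMm-EV. Of the miR-15/miR-16 family none of 5 was called (median -1.29), with miR-15b-5p at 299, 369 and 373 CPM against 0, 175 and 138 CPM (-1.73 ± 1.37, FDR 0.352, and -1.20 with FDR 0.0213 without CMm-EV 1). miR-16-5p was at 268 ± 52.7 and 155 ± 113 CPM (-0.78 ± 0.64, FDR 0.359), and was called lower by miRNA totals alone (-2.26, FDR 0.011).

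miRNA of other cell types gave a mixed picture. miR-375-3p, known from endocrine and endodermal cells, stood at 4550, 4360 and 2760 CPM in CPC-EV and at 4.00, 3.34 and 30.4 CPM in CMm-EV (log2 fold change -8.23 ± 0.81, FDR 0.00134). It was the only 1 of the 6 tested members of the endoderm-linked list that was called. The median of the 6 was -1.15. This list includes both arms of miR-483, which the paper links to mesoderm formation, and their values lower the median. miR-194-5p was at -0.30 (FDR 0.773) and miR-122-5p at 0.07 (FDR 0.930). miR-192-5p, of liver and gut, was at 2070, 2470 and 2800 CPM and at 1710, 1990 and 3230 CPM (-0.08 ± 0.29, FDR 0.835), with its sign changing as CMm-EV 1 (0.06) or CMm-EV 2 (0.02) was left out, while by miRNA totals alone it was called lower (-1.37, FDR 0.00694). miR-483-5p was at 240, 143 and 322 CPM and at 0, 125 and 50.1 CPM (-1.99 ± 1.38, FDR 0.301), and miR-483-3p was at -2.78 ± 1.65 (FDR 0.235). miR-486-5p, of red cells, was at 927 ± 192 and 801 ± 114 CPM (-0.21 ± 0.26, FDR 0.543), and was called lower by miRNA totals alone (-1.46, FDR 0.0139). miR-451a had 107, 122 and 0 counts in CPC-EV and 2, 4 and 0 in CMm-EV, and miR-150-5p had none in any library. miR-126-3p, of endothelium, was at 33.1, 34.2 and 43.4 CPM and at 0, 18.1 and 17.6 CPM (-1.61 ± 1.29, FDR 0.352). No member of the miR-29 and miR-34/miR-449 families passed the filter on low values.

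Summed by seed, the counts of matched miRNA show which pairing sequences the 2 kinds of vesicle carried. Only the 263 of 292 tested miRNA that matched an entry could enter, so a sum can lack members. The guaaaca sum of the miR-30 family (3.5%, 2.57% and 2.01% in CMm-EV) lacked miR-30d-5p, itself at 2.5%, 1.61% and 1.43% there. The leading seeds below are therefore ordered by group mean among matched miRNA only, and the order can differ in single libraries. In CPC-EV the leading seeds were cuuaaac of miR-302a-5p (17.2% of the miRNA counts), auugcac of the miR-92 group (17.1%), aagugcu of miR-302 and miR-372 (9.61%), acccgua of miR-99/miR-100 (9.13%) and aacggaa of miR-191-5p (7.80%). In CMm-EV they were acccgua (40.5%), cccugag of miR-125 (17.3%), gagauga of miR-143-3p (10.4%), ucaagua of miR-26 (5.91%) and ggaaugu of miR-1-3p (5.21%). The seed aagugcu went to 0.0129% of the counts and cuuaaac to 0.0249%, while gagguag of let-7 went from 0.0543% to 1.16%. All 3 tested miRNA with acccgua were called higher. For the ggaaugu seed, CMm-EV 3 held 10.2% and the other CMm-EV libraries 2.65% and 2.83%. The order of cuuaaac (15.5%, 26.4% and 9.82%) and auugcac (18.8%, 15.1% and 17.4%) in CPC-EV rested on CPC-EV 2.

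CMm-EV also drew their counts from fewer miRNA. The 10 most abundant miRNA took 71.0%, 74.3% and 68.7% of the counts in CPC-EV and 79.5%, 83.9% and 85.6% in CMm-EV, without overlap. To reach 90% of the counts took 32, 29 and 36 miRNA in CPC-EV and 21, 16 and 15 in CMm-EV. miRNA with at least 1 count numbered 421, 476 and 357 in CPC-EV and 276, 363 and 417 in CMm-EV, which overlap, and this number moves with the depth of a library.

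Both arms of a hairpin can be loaded into Argonaute, and a change in processing or strand choice would part them. Both arms were tested in 50 hairpins. In 16 of these both arms were called, and in all 16 they moved the same way. The ratio of the 5p to the 3p arm was called in none of the 50 hairpins (0%) by limma at an FDR of 0.05, with 7 at an unadjusted p under 0.05. The lowest p was that of miR-191, whose log2 ratio was 11.66, 12.64 and 10.35 in CPC-EV and 14.90, 16.07 and 16.38 in CMm-EV, a difference of 4.23 (FDR 0.162) that rests on 178 counts of its 3p arm over the CPC-EV libraries and none over CMm-EV. With a larger pseudocount or a stricter filter 1 hairpin was called, and as single libraries were left out between 0 and 2 were.

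CMi-EV, from cardiomyocytes of the same series at day 15 kept as aggregates in maintenance medium, lie between the 2 stages in time. With all 12 libraries scaled together, the miRNA differed in their mean levels at day 15. miR-100-5p had means of 2030, 217000 and 419000 CPM at days 6, 15 and 35, miR-133a-3p 130, 2590 and 4040 CPM, and miR-99a-5p 1280, 37200 and 48100 CPM. The let-7 members were at day 15 still far below their level of day 35, with let-7a-5p at 250, 139 and 4640 CPM, let-7e-5p at 42.0, 486 and 9700 CPM and let-7c-5p at 0.129, 64.3 and 2580 CPM. The mean of CMi-EV was above that of CMm-EV for miR-145-3p (1530, 7140 and 5460 CPM) and miR-208a-3p (5.66, 661 and 626 CPM). Both gaps were within the SD of CMm-EV as scaled in the 6 libraries (2120 and 179 CPM). Among the lower miRNA, miR-302a-5p passed through 128000, 6680 and 380 CPM, and miR-200b-3p through 5200, 144 and 5.52 CPM. No test was run on these courses.

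Fragments of gencode transcripts, that is of messenger, long noncoding and structural RNA, were compared next. In CMm-EV, some fragments of sarcomere genes were higher, and fragments of histone, stem cell and proliferation genes took a smaller share of the class. Each entry is a gene name with a transcript type, so that a gene can have several. The names appear cut at hyphens, with 6 of 39666 still holding one, so that an entry can join several genes (HLA, or RPL17 with its read-through transcript). Members with a hyphen in their name, such as NKX2-5 and the mitochondrially encoded genes, which share the name MT, could not enter the lists. Of 2461 tested entries, 147 were higher (5.97%) and 1189 lower (48.3%), with a median log2 fold change of -2.98 over all of them. CMm-EV held 131183 to 322043 gencode counts per library and CPC-EV 733045 to 1313888, and 908 of the entries called had no count in CMm-EV. The filter of 5 CPM therefore stood for fewer counts in CMm-EV than in CPC-EV. Only 320 entries passed the filter in both groups, of which 34 were higher and 35 lower, while 1867 passed through CPC-EV alone, with 1154 of the lower calls, and 274 through CMm-EV alone, with 113 of the higher calls. Limited to the 1024 entries with a mean of at least 50 CPM, a filter chosen after the data had been seen, 29 were higher and 175 lower. With the sum of the 5 classes as library size, 73 were higher and 1558 lower, and the median was -4.63. By DESeq2 220 were higher and 1429 lower, and without a filter 30 and 118. Without CPC-EV 1 or CPC-EV 3 the lower calls numbered 1702 and 2170, and without CMm-EV 1, CMm-EV 2 or CMm-EV 3 the higher calls numbered 259, 250 and 261. Fold changes below are of fragments within the gencode class.

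Sarcomere transcripts were higher in 6 of 22 tested entries and lower in 1. Of 9 that passed the filter in both groups 2 were higher and none lower. Their share of gencode counts was 0.237%, 0.211% and 0.285% in CPC-EV and 2.42%, 1.88% and 0.895% in CMm-EV. TTN stood at 1330, 1100 and 1730 CPM in CPC-EV and at 10900, 9160 and 7130 CPM in CMm-EV (2.71 ± 0.41, FDR 0.00886). The groups did not overlap. MYH6, the alpha heavy chain and host of miR-208a, rose from 202, 98.7 and 179 CPM to 486, 1520 and 1370 CPM (2.81 ± 0.63, FDR 0.00936). MYBPC3, cardiac myosin-binding protein C, had 1 count against 157 (ratio 482, 95% exact counting interval 85.2 to 19200). TPM1, alpha tropomyosin, at 146 ± 73.8 and 473 ± 187 CPM, was not called by edgeR (1.70 ± 0.71, FDR 0.0756), but was by DESeq2 (1.41, FDR 0.0356) and by gencode totals alone (1.99, FDR 0.0422). With the sum of the 5 classes as library size, TTN and MYH6 kept their direction, at 1.53 and 1.06, and missed the threshold. MYH6 also missed it without a filter (2.56, FDR 0.301).

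Of 6 tested entries for cardiac calcium handling, conduction and secreted factors, 2 were higher and none lower, and all 6 had passed the filter through CMm-EV alone. ATP2A2, the calcium pump of the sarcoplasmic reticulum, stood at 2.87, 38.4 and 25.6 CPM in CPC-EV and at 133, 381 and 116 CPM in CMm-EV (3.22 ± 1.04, FDR 0.0380). The groups did not overlap, and the FDR passed 0.05 without CPC-EV 1 (0.0809), CPC-EV 3 (0.0701) or CMm-EV 2 (0.101). The call of ATP2A2 was also lost with the sum of the 5 classes as library size (1.76, FDR 0.198), at a mean of at least 50 CPM (2.91, FDR 0.134) and without a filter (3.04, FDR 0.412). RYR2, the calcium release channel, was at 64.6, 1.83 and 48.3 CPM against 400, 5.29 and 187 CPM and was not called (2.36 ± 1.47, FDR 0.216), nor was SLC8A1, the sodium-calcium exchanger (4.93 ± 1.67, FDR 0.0550, but 9.62 and FDR 0.0182 without CPC-EV 3 and 4.9 and FDR 0.00898 by DESeq2). Transcripts of fatty acid oxidation, endoderm and endothelium held none that passed the filter.

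Cardiac mesoderm and progenitor transcripts were mixed, with 1 of 5 tested entries higher and 2 lower, none of which had passed the filter in both groups. GATA6 had 1 count against 66 (ratio 203, 95% exact counting interval 35.1 to 8120), while MEIS2 was at 54.5, 23.8 and 61.1 CPM in CPC-EV and without a count in CMm-EV, at least 3.92-fold lower. Without a filter neither GATA6 nor MEIS2 was called (FDR 0.412 for each). GATA4 was at 67.4, 75.9 and 35.5 CPM against 0, 18.5 and 40.0 CPM (-1.60 ± 1.20, FDR 0.287), and was called lower with the sum of the 5 classes as library size (-3.63, FDR 0.0167). HAND2 was at 54.5, 193 and 38.3 CPM against 143, 0 and 35.6 CPM (-0.69 ± 1.48, FDR 0.704), and its sign turned without CPC-EV 2 (0.46) and under scaling by gencode totals alone (0.03). All 4 encode transcription factors active in the early heart.

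The 29 listed entries for pluripotency transcripts held 460, 938 and 495 counts in CPC-EV and 1, 19 and 1 in CMm-EV, which is 0.0574% to 0.0714% and 0.000341% to 0.00590% of the gencode counts. Only LIN28A and SALL4 were tested, both through CPC-EV alone, and had no count in CMm-EV. LIN28A was at 141, 395 and 575 CPM in CPC-EV and at least 31.2-fold lower in CMm-EV, and SALL4 was at 110, 165 and 7.10 CPM and at least 7.96-fold lower. The 41 listed entries for proliferation transcripts held 458, 854 and 267 counts in CPC-EV and 0, 10 and 26 in CMm-EV. Of these 3 were tested, again through CPC-EV alone and without a count in CMm-EV, namely CENPF of the kinetochore (at least 8.42-fold lower), PCNA of the replication fork (at least 9.60-fold) and AURKB of the spindle (at least 2.29-fold). Without a filter CENPF (FDR 0.12), PCNA (0.0905), AURKB (0.412) and SALL4 (0.154) were not called. Of 79 tested histone entries 73 were lower and none higher, but 77 of the 79 had passed the filter through CPC-EV alone. The share of all 135 listed went from 1.63%, 1.88% and 1.37% of the gencode counts to 0.0152%, 0.0307% and 0.0337%. HIST1H4E, a histone made during DNA replication, stood at 3750, 5550 and 2960 CPM in CPC-EV and had 1 count in CMm-EV against 10774 (ratio 3510, 95% exact counting interval 630 to 139000), and HIST1H4C was at least 70.3-fold lower. H3F3A, a histone gene used outside of replication, fell as well, from 1740 ± 288 to 27 ± 27.6 CPM (-6.00 ± 0.78, FDR 0.00886). Reads may be shared between the related H4 genes, which was not tested, so that single members are uncertain.

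Of 194 tested ribosomal protein entries 87 were lower and none higher, and of the 23 that passed the filter in both groups 13 were lower. The 87 of 194 is a share of lower entries below the 48.3% over all tested. Their summed share of the gencode counts was 3.72% ± 0.554 in CPC-EV and 0.561% ± 0.0958 in CMm-EV. RPS7 had 6920 counts in CPC-EV and 1 in CMm-EV (ratio 2250, 95% exact counting interval 405 to 89100). RPL23 fell from 1650, 2090 and 1070 CPM to 9.53, 89.9 and 0 CPM (-5.53 ± 1.14, FDR 0.00944, and -8.43 without CMm-EV 2) and RPL17 from 1290 ± 230 to 84.0 ± 56.8 CPM (-3.94 ± 0.71, FDR 0.00886). Processed pseudogenes share reads with these genes. Of the fibroblast list, FN1, at 762, 643 and 656 CPM against 0, 119 and 0 CPM, was not called (-4.06 ± 1.42, FDR 0.0564) but was without CMm-EV 2 (-11.69, FDR 0.0241). VIM, at 340, 376 and 180 CPM against 90.5, 0 and 22.2 CPM, was not called (-3.01 ± 1.27, FDR 0.0910) and was called without CMm-EV 1 (-4.84, FDR 0.0330) or CMm-EV 2 (-2.49, FDR 0.0464).

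**Figure D5:**
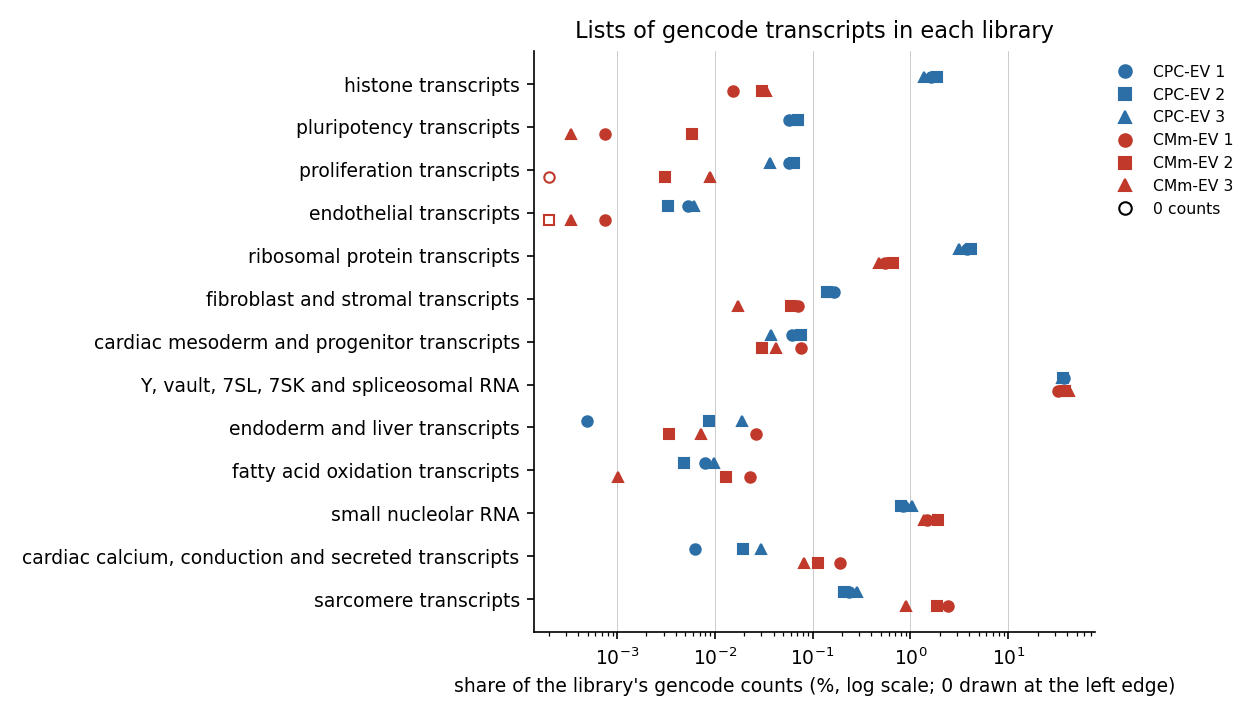
Share of the gencode counts (percent, horizontal log axis, 0 at the left edge) of lists of transcripts (rows) in the 3 CPC-EV and 3 CMm-EV libraries, 1 point per library. Sarcomere transcripts sit at 0.211% to 0.285% in CPC-EV and at 0.895% to 2.42% in CMm-EV, and histone transcripts at 1.37% to 1.88% and 0.0152% to 0.0337%.

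Structural RNA took the largest share of gencode counts of any list. Of 111 tested entries for Y, vault, 7SL, 7SK and spliceosomal RNA, 21 were higher and 13 lower (median log2 fold change 0.30), of which 3 and 6 had passed the filter in both groups. The share of the list was 36.3% ± 0.541 in CPC-EV and 37.3% ± 4.8 in CMm-EV. RNY1, a Y RNA that binds the Ro60 protein and is often cut in vesicles, stood at 171000, 184000 and 168000 CPM in CPC-EV and at 35100, 55700 and 71100 CPM in CMm-EV (-1.69 ± 0.34, FDR 0.00886). RNY4, a second Y RNA, was at 72900, 68600 and 56300 CPM against 53300, 81600 and 109000 CPM, with overlapping groups (0.30 ± 0.36, FDR 0.492). Its sign turned without CMm-EV 3 (-0.12) and with the sum of the 5 classes as library size (-1.25). RF00019, the entry under the family name of Y RNA, which the list does not hold, was at 338000 ± 3790 and 232000 ± 82600 CPM (-0.54 ± 0.34, FDR 0.2), and was called lower with the sum of the 5 classes as library size (-2.12, FDR 0.00391). The copies share reads, and the difference between RNY1 and RNY4 was not tested. Of 52 tested small nucleolar RNA 6 were higher and 6 lower (median 0.22). The share of the 266 listed was 0.832%, 0.797% and 1.05% of the gencode counts in CPC-EV and 1.48%, 1.91% and 1.38% in CMm-EV, without overlap.

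Outside of the lists, several of the largest folds rested on few counts. DIRC2, which encodes a transporter of the lysosomal membrane, was an exception, at 12.9, 9.14 and 22.7 CPM in CPC-EV and 2220, 5840 and 5230 CPM in CMm-EV (log2 fold change 8.20 ± 0.57, FDR 0.0054), with 3853 counts behind the higher value. TENT5A, a poly(A) polymerase, had 1 count against 83 (ratio 255, 95% exact counting interval 44.5 to 10200) and CDC42BPA, a kinase of the actin skeleton, 1 against 114 (ratio 350, 61.5 to 13900). Without a filter neither was called (FDR 0.249 and 0.144), nor was TENT5A at a mean of at least 50 CPM (FDR 0.0653). AC022762.1, a noncoding transcript that overlaps another gene, was at least 198-fold higher, mostly in CMm-EV 1, with 1910, 248 and 89.0 CPM. On the lower side RAB13, a small GTPase of vesicle traffic, had 1009 counts against 1 (ratio 329, 58.9 to 13000). HNRNPA1, a splicing factor, had 1395 against 3 (ratio 152, 51.7 to 736), the 3 all in CMm-EV 1, without which its log2 fold change of -6.94 became -11.42.

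tRNA fragments are listed under identifiers that the deposited tables do not pair with an amino acid or anticodon, and many entries share reads. The 499 tested entries held 353 distinct profiles, and 231 had another entry within 5% in every library. At the same threshold 143 were called (28.7%), 78 higher and 65 lower, with a median log2 fold change of 0.36. The filter was passed in both groups by 291, of which 11 were higher and 47 lower. The split moved with the scaling, to 154 higher and 39 lower by tRNA totals alone, 137 and 49 by median-of-ratios scaling, 130 and 56 by DESeq2, and 36 and 56 with the sum of the 5 classes as library size. The count also rests on single libraries. It was 9 without CPC-EV 1, 35 without CPC-EV 3 and 240 without CPC-EV 2. URS000063FB43_9606 stood at 87500, 104000 and 52000 CPM of the tRNA class in CPC-EV and at 5900, 6240 and 5520 CPM in CMm-EV (-3.78 ± 0.31, FDR 7.6e-05), without overlap, and was called in every alternative and without each library. URS000059900F_9606 had 1 count against 150 (ratio 174, 95% exact counting interval 30.7 to 6910). URS00004F0321_9606, the most abundant, was at 161000 ± 39000 and 116000 ± 16800 CPM and was not called (-0.47 ± 0.28, FDR 0.214, and 0.03 by tRNA totals alone).

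Counts on piRNA, a class known for silencing transposons in germ cells, fell almost wholly on 2 entries in both groups. piR-33043 took 57.4% to 59.1% of the piRNA counts in CPC-EV and 75.4% to 76.4% in CMm-EV, and piR-33044 took 39.8% to 41.5% and 21.2% to 23%. Of 23 tested piRNA 6 were called (26.1%), 1 higher and 5 lower, with a median log2 fold change of -0.15. Of 11 that passed the filter in both groups 1 was higher and 2 lower. By piRNA totals alone the median was 0.54 and the split 6 higher and 4 lower, and with the sum of the 5 classes as library size it was 0 higher and 8 lower. piR-33044 was lower (-1.60 ± 0.29, FDR 0.0106), but was outside the call by piRNA totals alone (-0.86), and without CPC-EV 1 its FDR was 0.0643. piR-33043 was not called (-0.38 ± 0.29, FDR 0.360) and turned to 0.38 by piRNA totals alone, while with the sum of the 5 classes as library size it was called lower (-2.21, FDR 0.000539). piR-36173 fell from 3660, 1610 and 2620 CPM to 406, 255 and 251 CPM (-3.12 ± 0.51, FDR 0.0106). piR-34804 rose from 223, 216 and 155 CPM to 934, 1070 and 1150 CPM (2.41 ± 0.47, FDR 0.0107, and 0.0643 without CPC-EV 1). Its call was lost with the sum of the 5 classes as library size (0.5, FDR 0.354) and without a filter (2.38, FDR 0.18). piR-31108 and piR-61298 had no count in CMm-EV, at least 4.71-fold and 4.63-fold lower, and piR-30597 had 109 counts against 1 (ratio 29.6, 95% exact counting interval 5.20 to 1180), with a log2 fold change of -4.92 that became -7.66 without CMm-EV 2. Without CPC-EV 3 the calls numbered 18, and without CMm-EV 2 they numbered 11. The libraries held 38530 to 143315 piRNA counts in CMm-EV and 480201 to 692296 in CPC-EV.

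Circular RNA had the fewest counts, 21375 to 38108 per library in CPC-EV and 14888 to 31456 in CMm-EV. Of 585 tested, 134 were called (22.9%), 29 higher and 105 lower (median log2 fold change -0.66). At this depth 1 count in a library was enough for 5 CPM, so the filter removed only features without a count in some library of each group. Of 194 that passed the filter in both groups 1 was higher and 6 lower. The count of 134 rested on single libraries. Without CMm-EV 1 or CMm-EV 2 the quasi-likelihood test of edgeR called 0, with 251 and 231 at an unadjusted p under 0.05, and leaving out CMm-EV 3 gave 77 calls (42 higher and 35 lower) and leaving out CPC-EV 2 or 3 gave 67 and 72. With all libraries DESeq2 called 135. hsa_circ_0001446, the most abundant, was at 46500, 64400 and 48800 CPM of its class in CPC-EV and at 28000, 105000 and 107000 CPM in CMm-EV, with overlap (0.58 ± 0.68, FDR 0.562). hsa_circ_0003737 was at 360, 0 and 0 CPM against 23600, 4860 and 552 CPM (6.33 ± 1.05, FDR 0.000291), with most counts in CMm-EV 1, and its call was lost without CMm-EV 1 (4.62, FDR 0.121) or CMm-EV 2 (7.37, FDR 0.0918), while without CPC-EV 1 its value was 11.04. hsa_circ_0001585 was at 3240, 4530 and 4960 CPM against 0, 31.7 and 50.2 CPM, or 301 counts against 2 (ratio 163, 95% exact counting interval 44.8 to 1350), and its FDR was 0.0941 without CMm-EV 1 and 0.0918 without CMm-EV 2. Its FDR was 0.08 at a mean of at least 50 CPM and 0.267 without a filter. With the sum of the 5 classes as library size, hsa_circ_0003737 (FDR 0.0681) and hsa_circ_0001585 (FDR 0.0554) were not called.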

How the data were processed

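EV were separated from conditioned medium on a density gradient, and their small RNA was sequenced in 12 libraries, of which the 6 of CPC-EV and CMm-EV entered the fits. The authors assigned reads with the exceRpt pipeline on hg38 to 5 classes (miRNA, tRNA, piRNA, circular RNA and transcripts of gencode), and deposited expected counts per feature and library, next to RPM. How reads of equal match were divided and whether strand was used is not given in the sources used here. The deposited RPM served only to recover library totals. The submitters' processing notes name edgeR 3.24.0 and hg38. No column of per-sample values was left without a sample (0).

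Expected counts were rounded to whole numbers. Within each class, features with at least 5 CPM in all 3 libraries of a group were scaled by TMM and tested with the quasi-likelihood test of edgeR 4.0.16 (R 4.3.3), with the Benjamini-Hochberg FDR over all tested features of the class. A feature was called at an FDR of at most 0.05 and an absolute log2 fold change of at least 1. Values are CPM within the class. Arm ratios were log2 with a pseudocount of 0.5 CPM and tested with limma 3.58.1. Scripts were tested on simulated data, and summaries used Python 3.11.15. Sequences and loci came from RefSeq tables of GRCh38.p14. With 1539043 to 3380608 miRNA counts in CPC-EV and 984865 to 6272455 in CMm-EV, the limit of 3 counts lay between 0.671 and 3 CPM. PCR reads carried no molecular identifiers in the deposited tables.

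Features named were those with the largest folds in each direction, the most abundant, the leading members of fixed lists and the leading seeds, of which the text prints a part. COL1A1, COL3A1, DCN, POU5F1, L1TD1, HAND1, TBX5, TNNT2, ACTC1, MYH7, AFP, APOB, CDH5, miR-451a, miR-150-5p and the genes without an entry were given as markers. The members and lists were chosen with earlier results of these data known. The alternatives were other scalings, other filters, DESeq2 1.42.0, the exact test of edgeR, dispersions from 12 libraries, the replicate number as a block and leaving out each library. A filter on a mean of 50 CPM was added after seeing the data.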

Additional observations from a re-analysis of the deposited data

How the results depend on the processing

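Of 123 named features, 61 kept their direction and their side of the threshold under every alternative run. Of 1659 values over these alternatives 1503 kept both, 109 no longer passed, 38 newly passed and 9 changed sign. Scaling by class totals alone called 34 miRNA higher and 112 lower and 10 piRNA, and turned miR-26a-5p (-0.08), HAND2 (0.03), piR-33043 (0.38) and URS00004F0321_9606 (0.03). Using the sum of the 5 classes as library size called 92 tRNA and 0 circular RNA (edgeR, 190 at an unadjusted p under 0.05) and turned RNY4 (-1.25). Without a filter 3 piRNA, 148 gencode transcripts and 1 circular RNA were called, and with a mean of at least 50 CPM 204 gencode transcripts and 4 circular RNA. For arm ratios, a pseudocount of 5 CPM and a minimum of 20 CPM called 1 hairpin each. Leaving out single libraries gave 119 to 162 miRNA, 51 to 68 higher and 68 to 106 lower, 9 to 240 tRNA, 7 to 18 piRNA, 1497 to 2316 gencode transcripts, 0 to 185 circular RNA, 0 to 2 hairpins and a difference in miRNA share of 29.6 to 35.78 points. It also turned miR-192-5p (-0.41 to 0.06), HAND2 (-2.43 to 0.46) and RNY4 (-0.12 to 0.5). A filter applied to fewer libraries also changes which features are tested, and beyond that the cause was not tested.

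The sample labels do not say whether equal replicate numbers mark a shared culture. The deviations of same-numbered libraries correlated at -0.000765, -0.0471 and 0.0187. Deviations from a group mean of 3 libraries depend on each other, so these values cannot decide the question. With the number as a block, 70 miRNA (40 higher, 30 lower), 67 tRNA, 1 piRNA, 1115 gencode transcripts, 92 circular RNA and 0 hairpins (limma, 5 at an unadjusted p under 0.05) were called. Some named miRNA lost their call under this block and no other alternative. These were miR-96-5p (FDR 0.0506), miR-302a-3p (0.0584), miR-25-3p (0.0666) and miR-200a-3p (0.07). The same held for miR-516a-5p (0.08), miR-370-3p (0.1) and miR-373-3p (0.135). In the gencode class, 3 counts stood for 7.93 to 14.3 CPM in CMm-EV and 2.74 to 4.3 CPM in CPC-EV. In the piRNA class they stood for 16.6 to 60.9 CPM and 4.43 to 12 CPM. For circular RNA this limit was high in both groups, at 95.2 to 151 CPM in CMm-EV and 93 to 162 CPM in CPC-EV.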
